A study of Mus musculus with 9 samples.

Results

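The 35 genes described here encode the enzymes that make purine and pyrimidine nucleotides, deoxynucleotides, serine, folate-bound carbon units and polyamines. They were chosen by name as a pathway list, and all 35 were among the 13499 genes of the authors' table. RNA was measured in 9 libraries of C57BL/6 mouse embryonic stem (ES) cells, cultured cells that can form the tissues of the embryo. All populations were grown on gelatine with LIF, a cytokine that keeps ES cells undifferentiated, in a medium the labels name 2xLIF SR-ES. Cells were sorted on a cytometer by GFP-Myc or EYFP level into populations labelled High, Medium and Low for Myc, with 3 biological replicates each. The labels do not say which reporter applied to which library, nor whether the line was a single clone. Each library held 11114936 to 16755566 recovered reads. The unit below, called signal, is the normalized count deposited by the authors, which sums to 953055 to 1026948 per library. Signal is thus relative to the library total. A difference in total RNA per cell between the populations would not show in it and was not tested.

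Purines are built stepwise on a phosphoribosyl sugar until inosine monophosphate is reached, which then gives adenine and guanine nucleotides. Pyrimidines are built as a free ring first and joined to the sugar later. Serine made from glycolysis supplies glycine and a carbon unit carried on folate, and these enter purines and thymidylate. Polyamines are small charged molecules made from ornithine and S-adenosylmethionine. Many of these enzyme genes are known as Myc targets in other cells, with Odc1 and Cad among the classical examples, and mouse ES cells are known for their use of threonine as a source of carbon units.

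Most of the 35 genes differed little between the ends of the Myc range, and the 9 that changed split between the directions. Pfas, Atic, Umps, Dhodh and Shmt2 were higher in High than in Low. Prps1, Rrm2, Psat1 and Sms were lower. The 9 shifts lay between 0.36 and 0.53 in absolute log2 fold change, and none reached a 2-fold change, which 5% of all genes did while passing. A gene was called when limma's adjusted p, corrected over all 13499 genes, was under 0.05. The 9 called members are 25.7% of 35, against a background of 28.4% of all genes called in either direction. For higher genes the background was 13.8% and for lower genes 14.6%, so 5 and 4 members of 35 are near the share of genes at large. With every library rescaled to the same total, the split over all genes moved from 1866 higher and 1966 lower to 1481 and 2213. The median log2 fold change of the members was 0.05, against 0 over all genes tested. Among called genes the median absolute log2 fold change was 0.39 for the members and 0.62 over all genes.

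Myc RNA itself, which names the populations, was 26.3, 27.6 and 24.2 in Low, 70.0, 65.5 and 65.8 in Medium and 112, 101 and 106 in High. This follows the sort and checks the labels. All 10 ES cell markers were measured, with a summed signal of 4586 to 6153 in Low and 5469.9 to 6147 in High. Of these, 4 were higher in High (Tfcp2l1 1.88-fold, Esrrb 1.45-fold, Klf4 1.31-fold and Zfp42 1.19-fold) and 0 lower. Nanog and Fbxo15 had log2 fold changes of -0.22 and -0.32 and missed the threshold (limma adjusted p = 0.132 and 0.0644). Pou5f1, with a log2 fold change of 0.42, missed it narrowly (limma adjusted p = 0.0519). Nanog and Fbxo15 passed as lower with the replicate block (limma adjusted p = 0.0338 and 0.0169), and Pou5f1 as higher (0.00645). After the length correction Fbxo15 (limma adjusted p = 0.0343) and Pou5f1 (0.000528) passed, and Nanog did not (0.315). With the replicate block 5 of the 10 were higher and 2 lower, where 38.8% of all genes passed. Markers of other cell types also moved with the sort. Of 12 trophoblast markers 9 were measured and 8 were lower in High, with a summed signal of 482 to 589.6 in Low, 227 to 247 in Medium and 137 to 145 in High. The table lists no Cdx2, Elf5 or Hand1 by name. Of 8 primitive endoderm markers 3 were measured, and their sum of 221 to 237 in Low and 428 to 442 in High was mostly Sparc. Sparc and Sox7 were higher in High, and Dab2 was lower (-1.13 on the log2 scale, limma adjusted p = 0.000424). Of 5 primed epiblast marker names 4 were measured; Fgf5, Otx2 and Pou3f1 were lower in High. Dnmt3b had a log2 fold change of 0.31 and missed the threshold (limma adjusted p = 0.0551), but passed as higher after the length correction (0.00848) or with the replicate block (0.0158). Of 8 fibroblast or feeder markers 6 were measured, with sums of 24.1 to 39.8 in Low, 35.5 to 59.8 in Medium and 28.4 to 41.4 in High. Thy1 was higher in High (1.76-fold, limma adjusted p = 0.00384), and the 5 others did not pass. With the replicate block Col1a1 passed as higher too (log2 fold change of 0.36, limma adjusted p = 0.0231). No measured marker was at 0 in every library. In bulk libraries a smaller share of cells with a transcript and less of it per cell cannot be told apart, and the part of these markers in the results below was not tested.

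**Figure D1:**
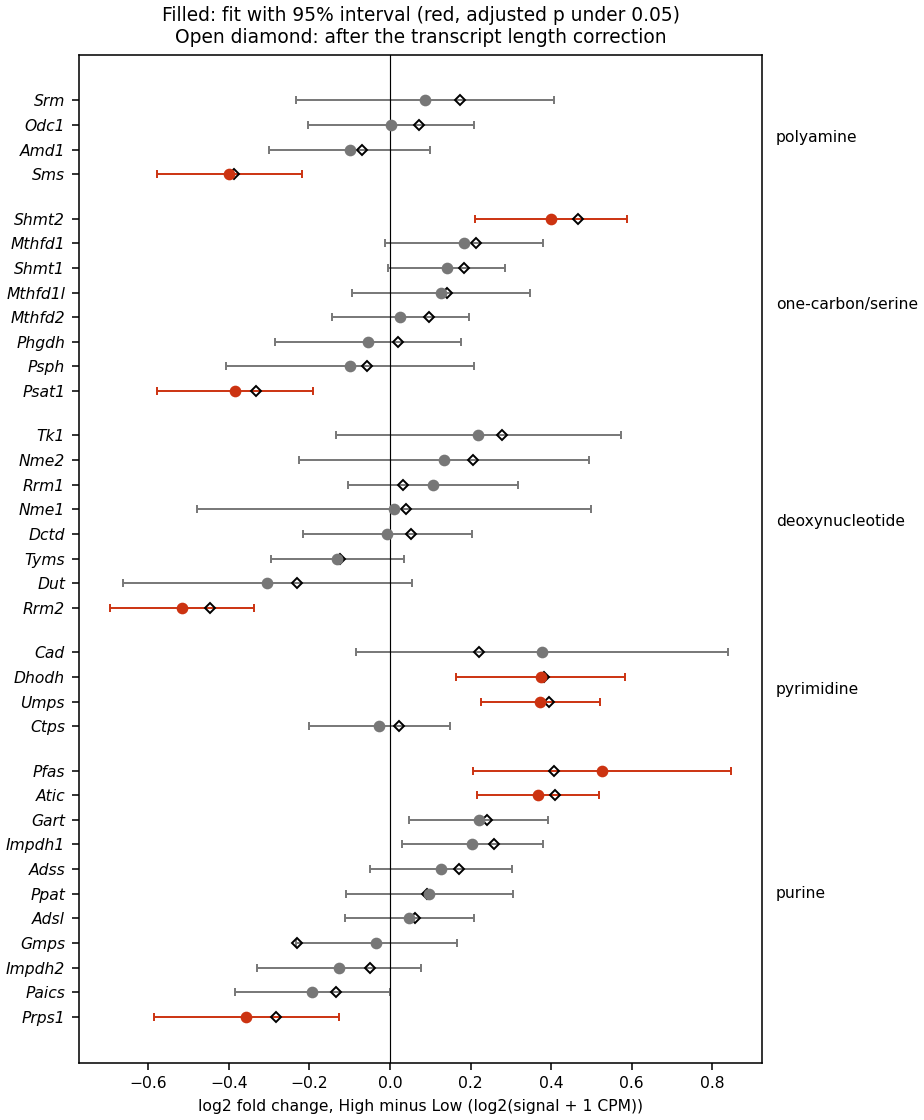
Log2 fold change of High minus Low for each of the 35 genes (x axis) by branch (y axis), with 95% intervals from limma; red marks adjusted p under 0.05 and open diamonds the value after a correction for transcript length. The 5 higher and 4 lower called genes all stay on their side of 0 after the correction, and Odc1 sits at 0.

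Promoter sequence was set beside the direction of change, because the factor that names the populations binds the E-box CACGTG. RefSeq windows on GRCm38.p6, from 250 bases before to 30 bases after an annotated start, were at hand for 32 of the 35 members. The 4 below are examples picked from the called genes, Atic and Umps from those higher in High and Sms and Rrm2 from those lower. Capitals mark CACGTG, which reads the same on both strands.
Atic, chr1:71556906-71557185 on the plus strand: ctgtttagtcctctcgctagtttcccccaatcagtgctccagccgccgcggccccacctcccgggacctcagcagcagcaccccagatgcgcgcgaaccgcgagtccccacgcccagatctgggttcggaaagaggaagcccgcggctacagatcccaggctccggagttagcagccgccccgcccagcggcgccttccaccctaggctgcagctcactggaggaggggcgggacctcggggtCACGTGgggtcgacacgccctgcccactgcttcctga
Umps, chr16:33967009-33967288 on the minus strand: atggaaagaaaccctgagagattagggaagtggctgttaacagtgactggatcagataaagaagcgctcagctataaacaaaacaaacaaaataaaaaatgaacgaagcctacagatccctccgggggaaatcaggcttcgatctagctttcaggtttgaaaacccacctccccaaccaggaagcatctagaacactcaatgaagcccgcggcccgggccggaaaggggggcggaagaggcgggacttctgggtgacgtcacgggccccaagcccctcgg
Sms, chrX:157492258-157492537 on the minus strand: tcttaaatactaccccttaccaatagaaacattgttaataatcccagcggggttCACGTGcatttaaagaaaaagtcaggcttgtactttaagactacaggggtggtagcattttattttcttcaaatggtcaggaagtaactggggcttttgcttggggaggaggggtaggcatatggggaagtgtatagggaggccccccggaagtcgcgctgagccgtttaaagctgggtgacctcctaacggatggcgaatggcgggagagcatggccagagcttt
Rrm2, chr12:24708004-24708283 on the plus strand: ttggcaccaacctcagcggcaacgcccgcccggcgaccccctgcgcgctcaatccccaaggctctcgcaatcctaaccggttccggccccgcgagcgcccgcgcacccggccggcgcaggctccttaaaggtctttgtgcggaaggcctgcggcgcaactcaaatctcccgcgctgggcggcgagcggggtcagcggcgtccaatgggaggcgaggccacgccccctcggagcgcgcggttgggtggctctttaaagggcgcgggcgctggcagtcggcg
The E-box was thus present in 1 gene that rose (Atic) and in 1 that fell (Sms), and these letters were not in the windows of Umps and Rrm2. Of the other called genes, Shmt2, Prps1 and Psat1 did not hold the letters in their windows, and Pfas and Dhodh had no window. The even split follows from which 4 were picked and does not compare sequence with direction. Sms has 2 annotated starts, and the window printed is the upstream one; the other did not hold the letters. Of the 32 members with a window, 6 held CACGTG (18.8%): Atic, Sms, Tyms, Paics, Impdh2 and Nme1. The share over the 9765 measured genes with a window was 11.4%, and over all 27025 genes with a window 7.71%. Among measured genes it was 11.3% for those higher in High, 9.96% for those lower and 11.7% for those not called. A match describes letters in a window and says nothing of binding.

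In the purine branch, Pfas and Atic were higher in High, while Prps1, for an enzyme that makes the sugar donor, was lower. The 8 remaining genes missed the threshold, and all 11 genes together had a median log2 fold change of 0.10. Atic, which catalyses the closing steps to inosine monophosphate, had a signal of 246, 232 and 247 in Low, 299, 293 and 301 in Medium and 314, 319.6 and 302 in High. High and Low did not overlap, and Medium lay between them but near High (1.29-fold for High over Low; log2 fold change of 0.37, SE 0.067, limma adjusted p = 0.00343). Pfas, which adds nitrogen from glutamine in the middle of the pathway, had a signal of 226, 149.8 and 173 in Low, 226, 221 and 265 in Medium and 285, 249 and 247 in High. Low replicate 1 was nearest to the High libraries and Low replicate 2 the lowest of all (1.43-fold; log2 fold change of 0.53, SE 0.14, limma adjusted p = 0.0222). The Pfas transcript is long, at 6373 nt, and its log2 fold change was 0.41 after a correction for transcript length. The call for Pfas was lost without Low replicate 2 (limma adjusted p = 0.0584), Low replicate 3 (0.0805), High replicate 1 (0.0821) or High replicate 2 (0.0537), and with quantile normalization (0.067).

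Prps1 encodes a phosphoribosyl pyrophosphate synthetase, which makes the sugar donor of purine, pyrimidine and salvage reactions. Its signal was 136, 169 and 157 in Low, 146, 119.5 and 129.7 in Medium and 123, 121 and 115 in High. High lay below Low in all libraries, and Medium ranged from the level of High to inside the range of Low (1.29-fold for Low over High; log2 fold change of -0.36, SE 0.10, limma adjusted p = 0.0286). Leaving out Low replicate 2 or 3, or any High replicate, lifted the adjusted p of Prps1 to between 0.0634 and 0.0978 (limma). Prps2, its close relative from the wider list of salvage and interconversion genes, went the other way. Its signal was 94.5, 87.0 and 98.9 in Low, 144, 134 and 127 in Medium and 142, 148 and 139.8 in High, so every Medium and High library exceeded every Low library (log2 fold change of 0.61, SE 0.079, limma adjusted p = 0.000500). The ratio of Prps2 to Prps1 within each library was 0.697, 0.514 and 0.630 in Low, 0.985, 1.12 and 0.981 in Medium and 1.16, 1.22 and 1.22 in High. The mean ratio went from 0.613 ± 0.0927 (SD, n = 3) in Low to 1.20 ± 0.0347 in High, a log2 difference of 0.98 that was 0.91 after the length correction. With 3 libraries on each side an exact permutation test, two-sided, cannot go below 0.1, and this ratio reached that p = 0.1. The pair was singled out after its values were seen.

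**Figure D2:**
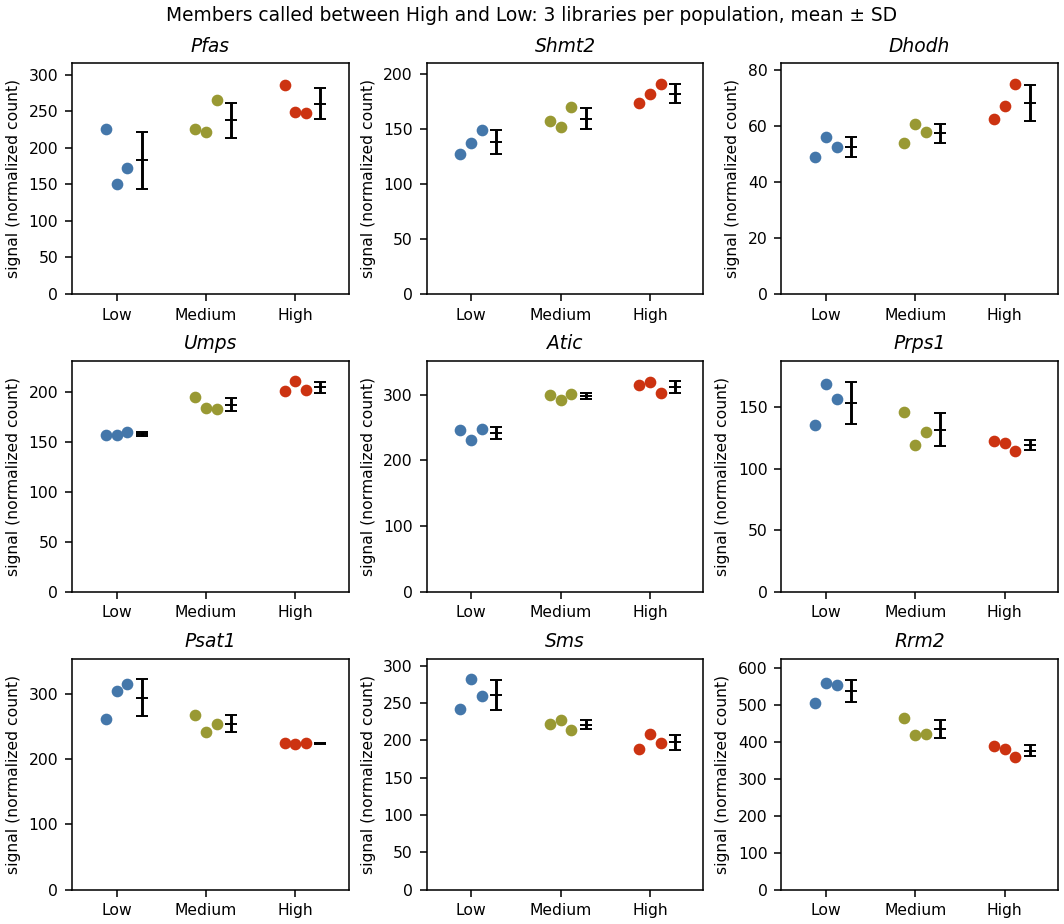
Signal (y axis, normalized counts) of the 9 called genes in each library of Low, Medium and High (x axis), with mean ± SD of 3 libraries beside the points. In each gene the 3 High libraries lie outside the range of the 3 Low libraries, and the Medium mean lies between. The genes were picked by their High against Low call in these libraries, so this separation is not a further result. Over all genes 41.6% did not overlap, and the Medium mean lay between for 55.2%.

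The entry enzyme of the purine branch, Ppat, which commits the sugar to the pathway, did not pass. Its signal was 188, 162 and 179 in Low, 231, 194 and 196 in Medium and 198, 183 and 185 in High, with the highest value in a Medium library (log2 fold change of 0.10, SE 0.093, limma adjusted p = 0.470). Paics, which carries out a pair of middle steps, had 583, 666 and 649.96 in Low, 645, 593 and 564 in Medium and 567, 554 and 537 in High (log2 fold change of -0.19, SE 0.086, limma adjusted p = 0.122). High lay below Low for Paics, whereas the groups overlapped for Ppat. Paics passed without Low replicate 1 (limma adjusted p = 0.028), and with every library rescaled to the same total (0.0414) or with quantile normalization (0.05). Ppat (chromosome 5, 76913249 to 76951578, minus strand) and Paics (76951307 to 76967509, plus strand) start head to head and overlap by 272 bases in the GENCODE M21 annotation on GRCm38. The use of strand in counting is not given, so reads from the overlap may be assigned to either. The ratio of Paics to Ppat was 3.09, 4.11 and 3.64 in Low, 2.80, 3.06 and 2.88 in Medium and 2.87, 3.03 and 2.91 in High, and the drop came between Low and Medium.

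Gart, Impdh1, Impdh2, Dut, Shmt1, Paics and Rrm1 are given library by library because an alternative setting or a partner gene brought them up, a choice made after their values were seen. Gart, a trifunctional enzyme of the early and middle steps, had 524, 469 and 512 in Low, 624, 575 and 578 in Medium and 586, 594 and 571 in High. High lay above Low in all libraries by 1.16-fold on the means, and Gart missed the threshold narrowly (log2 fold change of 0.22, SE 0.078, limma adjusted p = 0.0595). Its call depended on the model. Gart passed with the replicate number as a block (limma adjusted p = 0.0332), after the length correction (0.00981), without Low replicate 1 (0.0242) and in DESeq2 (0.0135). Impdh1 and Impdh2 encode the enzymes of the committed step to guanine nucleotides. Impdh1 was 56.4, 55.5 and 59.0 in Low, 61.9, 63.0 and 59.3 in Medium and 61.3, 70.6 and 65.7 in High (log2 fold change of 0.20, SE 0.078, limma adjusted p = 0.0781), and passed after the length correction (0.0113). Impdh2 was 469, 579 and 537 in Low, 491, 494 and 456 in Medium and 473, 477 and 498 in High (log2 fold change of -0.13, SE 0.091, limma adjusted p = 0.333), with Low replicate 2 the highest. Impdh2 passed as lower without Low replicate 1 (limma adjusted p = 0.0468). Adsl, Gmps and Adss, which act in or after the shared pathway to adenine and guanine nucleotides, had log2 fold changes of 0.05, -0.03 and 0.13 and did not pass.

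In the pyrimidine branch, 2 of 4 genes were higher in High, none was lower, and the median log2 fold change was 0.37, the highest of the 5 branches. Umps encodes the enzyme that completes uridine monophosphate. Its signal was 156, 157 and 159.9 in Low, 195, 184 and 183 in Medium and 200.4, 211 and 202 in High, with a mean of 158 ± 1.98 (SD, n = 3) in Low and 204 ± 5.71 in High. The 3 populations did not overlap and were in the order of Myc level (1.30-fold for High over Low; log2 fold change of 0.37, SE 0.066, limma adjusted p = 0.00287). Dhodh, the mitochondrial enzyme of the preceding oxidation, had 48.8, 55.8 and 52.3 in Low, 53.8, 60.5 and 57.7 in Medium and 62.3, 67.2 and 74.9 in High. All High libraries exceeded all Low and Medium libraries, and Medium overlapped Low (1.30-fold; log2 fold change of 0.37, SE 0.094, limma adjusted p = 0.0159). The call for Dhodh was lost without Low replicate 3 (limma adjusted p = 0.0558) or High replicate 3 (0.0684), without Low replicates 1 and 2 together (0.0571) and with quantile normalization (0.0547).

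Cad encodes the trifunctional entry enzyme of pyrimidine synthesis and is a textbook Myc target. Its signal was 491, 248 and 305 in Low, 474, 416 and 474 in Medium and 481, 422 and 403 in High. Low replicate 1 was the highest of all 9 libraries and Low replicates 2 and 3 were the lowest, so the groups overlapped. Cad did not pass (log2 fold change of 0.38, SE 0.21, limma adjusted p = 0.20, 95% interval -0.08 to 0.84). Without Low replicate 1 it passed at adjusted p = 0.00136 with a log2 fold change of 0.66 (limma). Cad also passed without Low replicates 1 and 2 (0.0197) and with library weights estimated gene by gene (0.000974). Its transcript of 7137 nt is among the long ones, and libraries differed in how long and short transcripts were represented. The mean log2 deviation of genes with transcripts of at least 4729.5 nt minus that of genes of at most 2100 nt was 0.26, -0.54 and -0.26 in Low replicates 1, 2 and 3, 0.29, -0.05 and 0.23 in Medium and 0.22, -0.06 and -0.08 in High. After the length correction the log2 fold change of Cad was 0.22 (limma adjusted p = 0.118). Ctps, which makes cytidine from uridine triphosphate, had a log2 fold change of -0.03 and overlapped between all populations.

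Among deoxynucleotide genes the small subunit of ribonucleotide reductase was the one that changed. Rrm2 was the lower gene, 0 of 8 were higher and the 7 others missed the threshold; all 8 together had a median log2 fold change of 0. Rrm2, the small subunit, whose level is known to peak in S phase, had 505, 559 and 554 in Low, 464, 419.95 and 422 in Medium and 389, 380.4 and 359.9 in High. The populations did not overlap and fell in order of rising Myc level (1.43-fold for Low over High; log2 fold change of -0.52, SE 0.080, limma adjusted p = 0.00138). Rrm1, the large subunit, had 209, 181 and 203 in Low, 261, 224 and 217 in Medium and 223, 211 and 203 in High. High and Low overlapped, while Medium lay above Low in all libraries, and Rrm1 did not pass between High and Low (log2 fold change of 0.11, SE 0.094, limma adjusted p = 0.434). The ratio of Rrm2 to Rrm1 within each library was 2.42, 3.10 and 2.73 in Low, 1.78, 1.88 and 1.94 in Medium and 1.75, 1.80 and 1.77 in High. The mean ratio fell from 2.75 ± 0.340 (SD, n = 3) in Low through 1.86 ± 0.0827 in Medium to 1.77 ± 0.0268 in High, with a log2 difference of -0.62 between High and Low and of -0.48 after the length correction (exact two-sided permutation p = 0.1, the smallest possible).

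Tyms, which makes thymidylate, had 96.5, 108 and 96.3 in Low, 91.3, 97.3 and 91.2 in Medium and 90.3, 92.5 and 91.0 in High. High lay below Low without passing (log2 fold change of -0.13, SE 0.074, limma adjusted p = 0.215), and Tyms passed with quantile normalization alone among the alternatives (0.0485). Dut removes uracil nucleotides and had 278, 455 and 381 in Low, 277, 319 and 276 in Medium and 266, 313 and 305 in High. Low replicate 2 was the highest of the 9 libraries, and Low replicate 1 sat with Medium and High (log2 fold change of -0.31, SE 0.16, limma adjusted p = 0.184). Dut passed as lower with the replicate block (limma adjusted p = 0.0448) and without Low replicate 1 (0.00471). Tk1, the thymidine salvage kinase of dividing cells, was lowest in Low replicate 1 and had a log2 fold change of 0.22 (-0.13 to 0.57, 95% interval). Dctd, which converts deoxycytidylate to deoxyuridylate, had -0.01.

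Nme1 and Nme2 encode near-identical nucleoside diphosphate kinases, and their counts are uncertain. They lie in tandem on chromosome 11 (Nme2 from 93949814 to 93956259, Nme1 from 93956979 to 93968521, minus strand), and the annotated readthrough gene Gm20390 (93949819 to 93968293) covers both. Nme1 had 110.4, 218 and 172 in Low, 138, 165 and 132 in Medium and 136, 178 and 175 in High, the widest spread within Low of the members on the log2 scale together with Cad. Nme2 had 463, 628 and 586 in Low, 471, 640.2 and 487 in Medium and 514, 644 and 681 in High. Gm20390 had 237, 507 and 359 in Low, 268, 332 and 277 in Medium and 261, 317 and 342 in High. Gm20390 held 32.9 ± 4.18% (SD, n = 3) of the sum of the 3 genes in Low and 28.3 ± 0.470% in High. The sum was 1094 ± 273 in Low and 1082 ± 152 in High, a difference within the spread of Low. Neither Nme1 (-0.48 to 0.50, 95% interval of the log2 fold change) nor Nme2 (-0.23 to 0.49) passed.

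Among serine and one-carbon genes, Shmt2 rose and Psat1 fell. The 6 remaining genes missed the threshold, and the median log2 fold change of all 8 was 0.08. Shmt2, the mitochondrial enzyme that splits serine into glycine and a folate-bound carbon unit, had 127, 137 and 149 in Low, 157, 151 and 169 in Medium and 174, 181 and 191 in High. High exceeded Low and Medium in every library (1.32-fold for High over Low; log2 fold change of 0.40, SE 0.084, limma adjusted p = 0.00706). Without Low replicates 1 and 2 the call was lost (limma adjusted p = 0.0679). Shmt1, the cytosolic counterpart, was 157, 153 and 160.4 in Low, 176, 179 and 171 in Medium and 176, 174 and 169 in High. Its smaller rise of 1.10-fold on the means did not pass (log2 fold change of 0.14, SE 0.065, limma adjusted p = 0.134), and passed after the length correction (0.0211).

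Psat1, the transaminase in the middle of serine synthesis, went down as Myc level went up. It had 262, 306 and 316 in Low, 268, 242 and 254 in Medium and 226, 224 and 225 in High, with High values within 2 units of each other and below all Low and Medium libraries (1.31-fold for Low over High; log2 fold change of -0.39, SE 0.086, limma adjusted p = 0.00936). The call was at adjusted p = 0.0501 without Low replicate 3 (limma). The genes of the enzymes before and after it in the same short pathway did not pass. Phgdh, the entry enzyme from glycolysis, had 147, 174 and 174 in Low, 154, 178 and 159 in Medium and 142, 166 and 168 in High (log2 fold change of -0.05, SE 0.10, limma adjusted p = 0.731). Psph, the last step, had a log2 fold change of -0.10 and a 95% interval of -0.41 to 0.21. The folate enzymes Mthfd1, Mthfd2 and Mthfd1l, which interconvert carbon units in the cytosol and mitochondria, had log2 fold changes of 0.18, 0.03 and 0.13. Mthfd1 was higher in High than in Low in all libraries, and passed after the length correction (limma adjusted p = 0.0474) and without Low replicate 1 (0.046).

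The polyamine branch held 1 called gene of 4, Sms, which makes spermine and was lower in High. Sms had 242, 282 and 259 in Low, 221, 227 and 214 in Medium and 188, 208 and 196 in High, and the populations did not overlap (1.32-fold for Low over High; log2 fold change of -0.40, SE 0.080, limma adjusted p = 0.00556). Odc1, the rate-limiting enzyme that makes putrescine and a textbook Myc target, did not pass. Its signal was 1113, 1298 and 1257 in Low, 1308, 1255 and 1173 in Medium and 1162, 1271 and 1236 in High, and its mean was 1222 ± 96.9 (SD, n = 3) for Low and 1223 ± 55.8 for High. The log2 fold change of Odc1 was 0 with a 95% interval of -0.20 to 0.21, while Myc RNA in the same libraries was 4.08-fold higher in High. Amd1, which supplies the aminopropyl donor, and Srm, which makes spermidine, had log2 fold changes of -0.10 and 0.09 and did not pass. The ratio of Sms to Srm was 1.13, 0.835 and 0.885 in Low, 0.852, 0.809 and 0.859 in Medium and 0.660, 0.676 and 0.676 in High. Low replicate 1 had the highest ratio, and all High libraries were below all others.

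**Figure D3:**
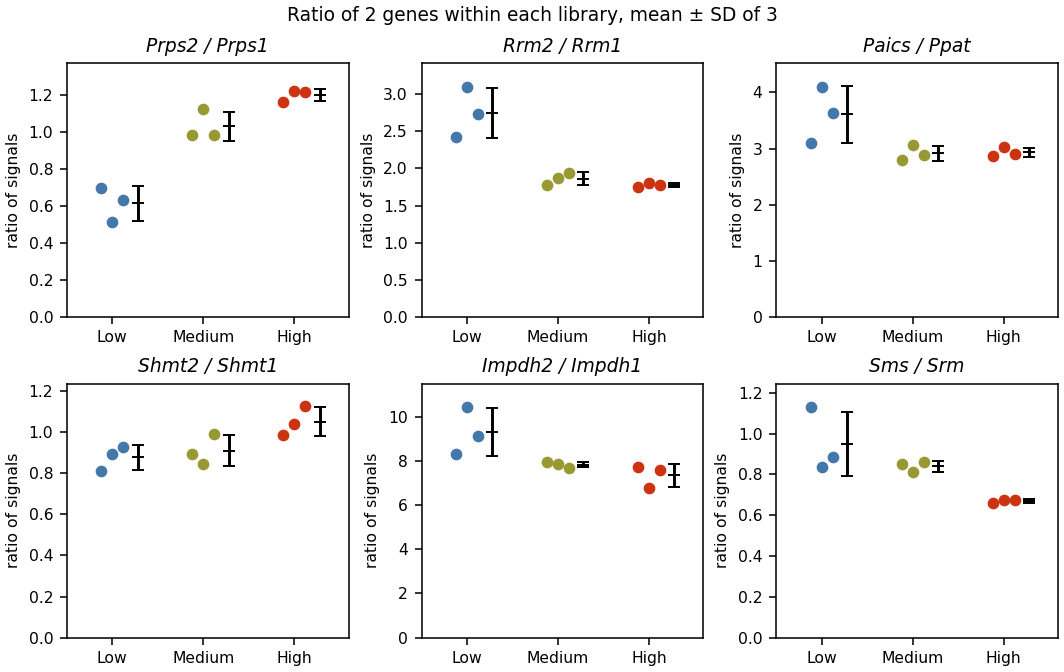
Ratio of the signals of 2 genes within each library (y axis) in Low, Medium and High (x axis), with mean ± SD of 3. The Prps2 to Prps1 ratio runs from 0.514 in a Low library to 1.22 in a High library, and the Rrm2 to Rrm1 ratio from 3.10 to 1.75.

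The branches were compared through their counts and medians, since genes of a branch are not replicates. The called genes were 2 higher and 1 lower of 11 for purines, 2 and 0 of 4 for pyrimidines, 0 and 1 of 8 for deoxynucleotides, 1 and 1 of 8 for serine and one-carbon genes, and 0 and 1 of 4 for polyamines. The median log2 deviation of the pyrimidine genes from each gene's mean was -0.08, -0.14 and -0.18 in Low, 0.10, 0.03 and -0.01 in Medium and 0.11, 0.13 and 0.07 in High, with no overlap between Low and High. For purines it was -0.08, -0.04 and -0.02 in Low and 0.03, 0.07 and 0.01 in High. For polyamines it was -0.05, 0.18 and 0.06 in Low and -0.03, -0.03 and -0.04 in High, so that the direction depended on the Low library. For serine and one-carbon genes it was -0.11, -0.08 and 0 in Low and 0.02, 0.03 and 0 in High, and for deoxynucleotide genes -0.15, 0.17 and 0.07 and -0.10, 0.01 and -0.03. After the correction for transcript length 9 members were higher and 4 lower, where 37.7% of all genes passed, 19.7% higher and 18.1% lower. The purine count became 4 higher and 1 lower and the one-carbon count 3 and 1, while the other branches kept their counts. These are descriptions, and no test between branches was made.

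**Figure D4:**
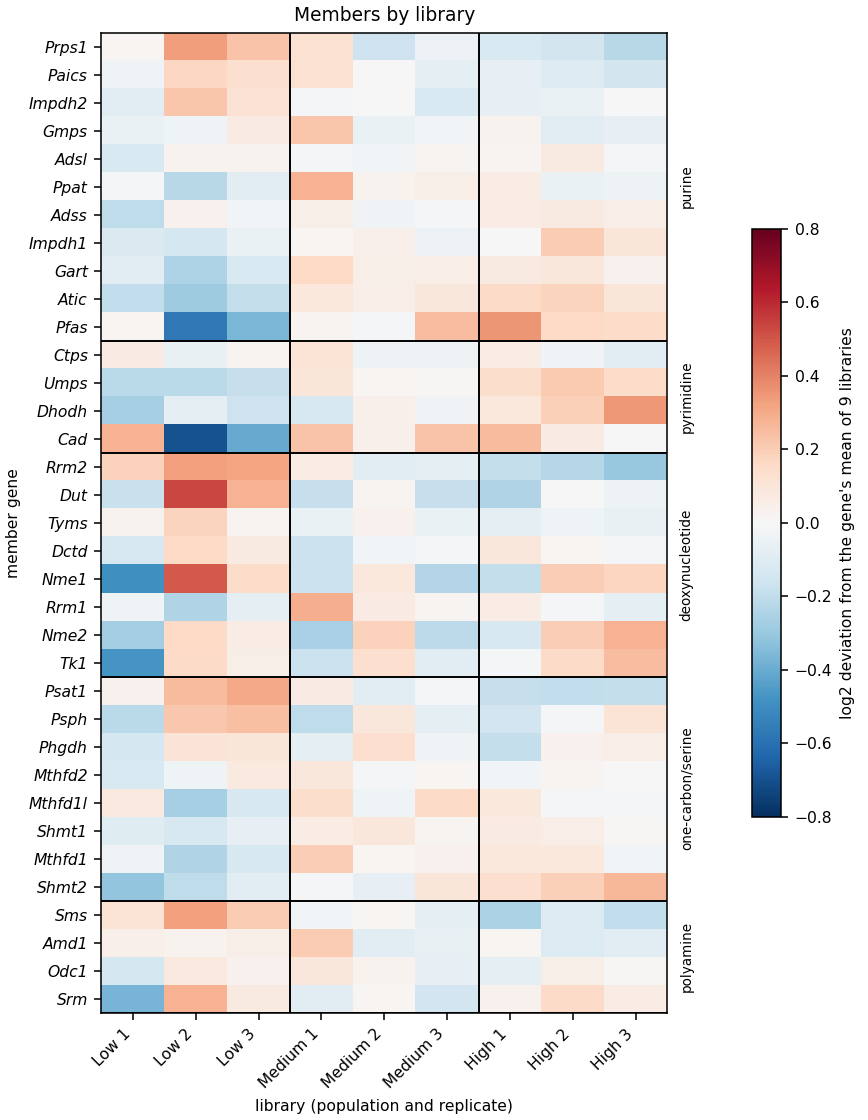
Log2 deviation of each gene from its mean over 9 libraries (colour) for 35 genes by branch (rows) and 9 libraries (columns). Low replicates 1 and 2 lie on opposite sides of the mean for Cad, Nme1 and Tk1.

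High and Low did not overlap for 17 of the 35 members, 10 higher and 7 lower in High. Over all genes 41.6% did not overlap, 20.2% higher and 21.4% lower. The Medium mean lay between those of High and Low for 17 members, and over all genes this held for 55.2%. Spread was larger in Low than in High. The median coefficient of variation of the members was 7.6% in Low, 6.22% in Medium and 4.24% in High, against 15.1%, 10.1% and 9.21% over all genes. The 95% interval of the log2 fold change lay within a 1.5-fold change either way for 24 of the 26 members that did not pass. The 2 exceptions were Cad and Dut. Over all 35 members 29 met this limit, so called genes met it too and it does not set the uncalled genes apart. When 1 library was left out, the count of members called was highest and lowest for Low libraries. It was 15 without Low replicate 1 and 5 without Low replicate 3, where the counts over all genes were 5757 and 2266.

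Between High and Medium 0 members passed by limma, where 0.407% of all genes did. At an unadjusted p under 0.05 there were 3 of 35 members, against 1468 of 13499 genes. Both edgeR and DESeq2 called 0 members as well. Between Medium and Low 3 members passed, against a background of 12% of genes, 6.14% higher and 5.87% lower in Medium. Atic and Umps were higher in Medium, by log2 fold changes of 0.30 and 0.25 (limma adjusted p = 0.0221 and 0.0414). Rrm2 was lower, with a log2 fold change of -0.31 (adjusted p = 0.0368). This count was 17 without Low replicate 1, and 0 without Low replicate 2, Low replicate 3 or any Medium replicate. It was 1 without any High replicate, where Atic alone passed. Leaving out Low replicate 1 also raised the calls over all genes, to 5757 for High against Low. The share of all genes for Medium against Low in these fits is not given, so 17 is not read as a result about the members. For Medium against the mean of High and Low 0 members passed by limma, edgeR or DESeq2, as for 0% of all genes by limma. At an unadjusted p under 0.05 there was 1 of 35 members, against 766 of 13499 genes. These comparisons share libraries and are not independent.

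Per kilobase of the longest annotated transcript, mean signal over the 9 libraries ranged from 13.2 for Psph to 561 for Nme2. Odc1 (557), Impdh2 (268), Paics (239.9), Srm (209) and Rrm2 (205) followed Nme2. Dhodh (15.6) and Gmps (17.6) were near the lower end. Every member had at least 421 recovered reads in each library.

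The wider pathway lists held 116 measured identifiers, of which 13 were higher and 22 lower in High. This is 30.2%, against 28.4% of all genes. Of the salvage and interconversion genes that passed, most were lower in High. Of 32 identifiers for 31 names 2 were higher and 9 lower, with a median log2 fold change of -0.14. Over all genes 13.8% were higher and 14.6% lower. The count of 11 fell to 7 without Low replicate 2 or Medium replicate 3, to 4 without Low replicate 3 and to 5 without High replicate 1. Prps2 was the highest. Cda, a cytidine deaminase of very low signal (1.5 ± 0.327 in Low and 0.277 ± 0.0856 in High), Ak3 and Dguok, mitochondrial kinases, and Prpsap2, a partner of the Prps enzymes, had log2 fold changes of -0.94, -0.62, -0.61 and -0.46. Cda reached the floor of 1 CPM in Low and not in High. Its presence among the genes tested thus favoured a fall, and its call, counted among the 9, is not read as a result. Prpsap2 no longer passed without Low replicate 3 (limma adjusted p = 0.0629) or High replicate 1 (0.0556). Hprt, the main purine salvage enzyme, did not pass (log2 fold change of -0.11, SE 0.12, limma adjusted p = 0.514). These genes have short transcripts, with a median of 1849 nt against 3288 nt over all genes, and after the length correction their counts were 3 higher and 10 lower.

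Of 17 nucleotide breakdown genes 2 were higher and 3 lower, 29.4% against 28.4% of all genes. The purine nucleoside phosphorylases Pnp and Pnp2 rose, from 154 ± 25.1 (SD, n = 3) to 235 ± 6.67 and from 16.8 ± 3.46 to 46.1 ± 0.759. They are close copies, so reads shared between them may have been split by the counting. Samhd1, which degrades deoxynucleotides, fell by 0.49 on the log2 scale, and Ada and Nt5m had -0.37 and -0.52. Ada and Nt5m passed narrowly (limma adjusted p = 0.0485 and 0.0489), and each lost its call in 15 of 26 alternatives, with edgeR, DESeq2 and quantile normalization among them. The list's count of 5 was 3 without Low replicate 2 or 3, Medium replicate 1 or any one of the High replicates. Of 21 folate and methionine cycle genes 2 were higher and 2 lower, 19.0% against 28.4% of all genes. Fpgs, which adds glutamates that retain folate in cells, rose (log2 fold change of 0.39, SE 0.086, limma adjusted p = 0.00877), and Ggh, which removes them, fell (log2 fold change of -0.60, SE 0.16, limma adjusted p = 0.0210). The low-signal Mthfd2l had a log2 fold change of -0.65. The call for Ggh was lost without Low replicate 2 (limma adjusted p = 0.0638) or 3 (0.0866) or High replicate 1 (0.0799). Without Low replicates 1 and 2 together Fpgs (0.0556) and Mthfd2l (0.086) lost theirs. The list's count of 4 was 2 without Low replicate 3 or High replicate 1. It was 7 with the replicate block, where 38.8% of all genes passed. Mat2a, which makes S-adenosylmethionine, and Ahcy, which clears its product, did not pass, with log2 fold changes of 0.24 and 0.17 (limma adjusted p = 0.0509 and 0.142). After the length correction this list had 7 higher and 2 lower, where 19.7% of all genes were higher and 18.1% lower.

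Tdh and Gldc, which draw on threonine and glycine, were higher in High. Of 15 measured serine, glycine and threonine genes 5 were higher and 0 lower. This is 33.3%, against 28.4% of all genes called in either direction and 13.8% called higher. Tdh, the threonine dehydrogenase typical of mouse ES cells, had 291, 369 and 331 in Low, 372, 443 and 406 in Medium and 441, 517 and 504 in High. High exceeded Low in all libraries (1.48-fold; log2 fold change of 0.56, SE 0.11, limma adjusted p = 0.00500). Gldc, which cleaves glycine in mitochondria, had 266, 195 and 221 in Low, 319.5, 279 and 299 in Medium and 319.8, 301 and 288 in High (log2 fold change of 0.42, SE 0.11, limma adjusted p = 0.0210). Its call was lost without Low replicate 2 (0.0536) or 3 (0.075) or High replicate 1 (0.0756) or 2 (0.063), and with quantile normalization (0.0758), in limma. Cth and Cbs, which turn homocysteine and serine into cysteine, and Sfxn1, a mitochondrial serine transporter, had log2 fold changes of 0.63, 0.38 and 0.58. Cbs lost its call after the length correction (limma adjusted p = 0.118), without Low replicate 2 (0.0505), High replicate 2 (0.0666) or High replicate 3 (0.06), and without Low replicates 1 and 2 together (0.117). The list's count of 5 was 3 without Low replicate 2 or High replicate 2.

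Of 16 polyamine control genes 1 was higher, 1 was lower and 14 did not pass. The called share was 12.5%, against 28.4% of all genes. The higher gene, Amd2, is a close relative of Amd1 at a signal of 0.477 to 3.17, so its reads cannot be separated from those of Amd1 with certainty. The lower gene was Eif5a2 (-0.51), a minor form of the factor that carries a polyamine-derived residue. Amd2 lost its call without Low replicate 3 (limma adjusted p = 0.0503), and Eif5a2 without High replicate 2 (0.0641) or 3 (0.0591) or Low replicates 1 and 2 together (0.0977). The list's count of 2 became 5 when transcript length was corrected for and 4 with the replicate block. Over all genes 37.7% and 38.8% passed in these settings. Oaz1 and Azin1, the antizyme that destroys Odc1 protein and its inhibitor, had log2 fold changes of -0.16 and 0.04 (limma adjusted p = 0.530 and 0.826). Sat1 and Smox, which break polyamines down, had 0.51 and -0.12 (adjusted p = 0.0526 and 0.401).

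Psat1, Phgdh, Psph, Shmt2 and Mthfd2 are known targets of Atf4, the factor of the amino acid response, and the other genes of that program were compared. Of 16 measured genes 1 was higher and 7 lower, with a median log2 fold change of -0.36. Over all genes 13.8% were higher and 14.6% lower. The higher gene was Sesn2, with log2 fold changes of 0.26 to 0.43 when 1 library was left out. Sesn2 lost its call in 6 of 26 alternatives. Asns, an asparagine synthetase, had 148, 189 and 183 in Low, 154, 150.2 and 148 in Medium and 130.2, 138 and 129.8 in High (log2 fold change of -0.38, SE 0.096, limma adjusted p = 0.0167), and its call was lost without Low replicate 3 (0.0751) or High replicate 1 (0.0562) or 3 (0.0599). Ddit4, Cebpb, Stc2, Ddit3 and Chac1 had log2 fold changes of -2.04, -1.60, -1.15, -0.67 and -0.62. Ddit4 is also regulated by p53. Ddit3 lost its call without Low replicate 3 (limma adjusted p = 0.0702) or High replicate 2 (0.0528). Atf4 RNA did not pass (log2 fold change of 0.11, SE 0.14, limma adjusted p = 0.588).

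**Figure D5:**
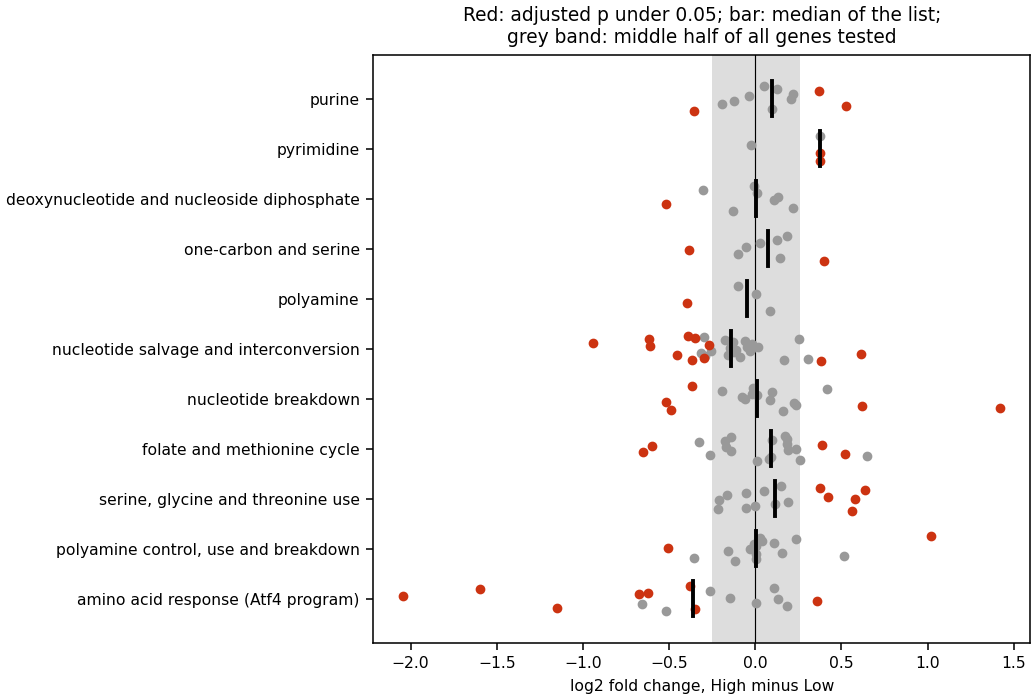
Log2 fold change of High minus Low (x axis) for each gene of the 5 branches and 6 wider lists (y axis); red points have adjusted p under 0.05, bars are list medians and the grey band runs from the lower to the upper quartile of all genes tested. The pyrimidine median of 0.37 and the amino acid response median of -0.36 lie outside the band.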

How the data were processed

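RNA-seq values of 9 libraries in 3 sorted populations came from the authors' deposited table of normalized counts, a signal close to CPM in scale. Per the submitters' processing notes the tools were Picard, cutadapt, RSEM and limma; their order and any strand setting were not stated there. Within each library the values are whole multiples of 1 read (tolerance 0.001 read), so reads were recovered for edgeR 4.0.16 and DESeq2 1.42.0 as alternatives. Unnamed genes (85) held 1.71 to 2.53% of the signal.

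The test was limma 3.58.1 (R 4.3.3) fitted with a mean-variance trend to log2 values (signal plus 1 CPM of the library's own total), all 9 libraries in one fit with population as the term, and Benjamini-Hochberg adjustment over 13499 genes at 0.05. A filter of 1 CPM in at least 3 libraries removed no gene. Fold changes on this scale understate those of low genes. Transcript lengths came from GENCODE M21, matched for 13412 identifiers. Scripts were tested on simulated data.

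The members and lists were chosen with earlier results of these data known. Members past the threshold, entry enzymes and near-identical pairs were to be given library by library; of each wider list, at most the 5 largest changes past the threshold and a preset group of genes, of which some are not reported here. The labels name biological replicates without saying whether cultures were separate, so p-values measure the spread between these samples. Replicate numbers pair High with Low: correlations of deviations were 0.53, 0.26 and 0.18, each above 0.1, while the differently numbered pairs Low 2 with High 3 (0.31) and Low 3 with High 2 (0.12) also exceeded it. The other population pairs did not meet this rule.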

Additional observations from a re-analysis of the deposited data

How the results depend on the processing

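Calls of Atic, Umps, Rrm2 and Sms between High and Low held under all 26 alternatives. Pfas, Prps1 and Dhodh lost their call without single libraries of either Low or High, and Psat1 and Shmt2 without Low libraries. Leaving out 1 library gave 2266 to 5757 called genes and 5 to 15 members (3 to 8 higher, 2 to 7 lower). By branch it gave 1 to 6 purine, 1 to 3 pyrimidine, 1 to 2 deoxynucleotide, 1 to 3 one-carbon and 1 polyamine genes, and 20 to 40 of the wider lists. For Medium against Low it gave 0 to 17 members, where the counts over all genes are not given. The cause was not tested.

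Library weights estimated gene by gene were chosen after seeing the data, because the planned estimate did not converge. No fit was made with the planned estimate. With the gene-by-gene weights 7850 genes and 19 members passed (11 higher, 8 lower), with 7 purine, 2 deoxynucleotide, 6 one-carbon and 61 wider genes. These weights also gave 19 members for Medium against Low and 1 for Medium against the mean of the others. The replicate block gave 2 deoxynucleotide genes and 10 members for Medium against Low, where it called 27.1% of all genes. It changed no other member call between High and Low than those of Gart and Dut. The length correction gave 9 higher members, 5 purine, 4 one-carbon and 5 Medium against Low. Block and length together gave 5967 genes, 16 members (11 higher), 5 purine, 4 deoxynucleotide, 4 one-carbon, 54 wider and 10 Medium against Low. Quantile normalization gave 3 higher members, 1 pyrimidine and 2 deoxynucleotide genes. Without Low replicates 1 and 2, 1 one-carbon gene and 1 member for Medium against Low passed. That last count was 1 with no variance trend and 0 with only the 2 populations in the fit. Apart from the block, the shares of all genes for Medium against Low are not given for these settings. Their counts for that comparison are not read as a result about the members.

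Some log2 fold changes that did not pass changed sign. With quantile normalization they were -0.023 for Ppat, -0.065 for Adsl, -0.016 for Rrm1, -0.098 for Nme1 and -0.072 for Mthfd2. With length correction, alone or with the block, they were 0.022 for Ctps, 0.052 for Dctd and 0.020 for Phgdh. Rescaling gave -0.023 for Nme1 and -0.007 for Mthfd2, weights -0.013 and -0.059, and leaving out Low replicates 1 and 2 -0.088 and -0.078; edgeR and DESeq2 gave -0.035 and -0.031 for Nme1. Without 1 library the ranges were -0.001 to 0.073 for Adsl, -0.065 to 0.005 for Ctps, -0.07 to 0.002 for Gmps, -0.088 to 0.056 for Dctd, -0.26 to 0.23 for Nme1, -0.135 to 0.024 for Phgdh, -0.023 to 0.077 for Mthfd2, -0.095 to 0.23 for Srm and -0.064 to 0.047 for Odc1.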
